A study of Mus musculus with 18 samples.

Results

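The 10 genes Sst, Npy, Vip, Cck, Penk, Pdyn, Tac1, Crh, Cort and Adcyap1, which encode precursors of neuropeptides, were taken by symbol from the 30905 genes of the count matrices. Their counts of unique molecular identifiers (UMIs, each standing for 1 captured RNA molecule) were summed per library over interneurons and over excitatory neurons. A nucleus counted as an interneuron with 2 or more UMIs of Gad1 and Gad2 together and at most 1 of Slc17a7, and as an excitatory neuron with 2 or more UMIs of Slc17a7 and at most 1 of Gad1 and Gad2. This gave 11314 interneurons (6156 of hippocampus, Hip, and 5158 of prefrontal cortex, PFC) and 46687 excitatory neurons (22625 and 24062) of 138000 nuclei. The genes of the class rule are no finding, and none of the 10 precursors entered it.

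The libraries are droplet-based single-nucleus RNA libraries of Hip and PFC of the same 9 Kun Ming mice, an outbred stock, all killed at 8 weeks of age. Germ-free (GF) mice 5, 6 and 7 were kept without microbes in gnotobiotic isolators. Specific pathogen-free (SPF) mice 30, 31 and 32 carried a gut microbiota and were raised outside these isolators. Colonized germ-free (CGF) mice 17, 18 and 19 were GF mice housed as juveniles in an isolator cage with an SPF mouse until sampling. All 3 groups were wild type. Values of 3 libraries are given below in the order of these mouse numbers.

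Neuropeptides are made as longer precursors that are cut by prohormone convertases in the secretory pathway, stored in dense-core vesicles and released to act on G protein-coupled receptors. In cortex and hippocampus they are best known as products of GABAergic interneurons, whose main subclasses are named after them. Several are also made by excitatory neurons, such as Cck in many pyramidal cells and Pdyn in granule cells of the dentate gyrus.

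The precursor genes are short, and their positions on GRCm38 (GENCODE vM21) were as follows. Sst, for somatostatin, lies on the minus strand at chr16:23889573-23890958, and Cort, for the related cortistatin, on the minus strand at chr4:149125034-149126763. Npy, for neuropeptide Y, lies on the plus strand at chr6:49822710-49829507, and Vip, for vasoactive intestinal peptide, on the plus strand at chr10:5639218-5647617. Cck, for cholecystokinin, lies on the minus strand at chr9:121489824-121495694. Penk and Pdyn, the opioid precursors for enkephalins and dynorphins, lie on the minus strands at chr4:4133531-4138819 and chr2:129686565-129699844. Tac1, for substance P and neurokinin A, lies on the plus strand at chr6:7554879-7565834. Crh, for corticotropin-releasing hormone, lies on the minus strand at chr3:19693401-19695396, and Adcyap1, for the peptide PACAP, on the plus strand at chr17:93199017-93206537. Penk overlaps A830012C17Rik on the other strand, and the other 9 overlap no annotated gene.

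The bases before the start sites of Sst, Npy and Vip are shown because these peptides are classical interneuron markers and the 3 genes were called together in the comparisons of Hip interneurons below. They come from the RefSeq table of promoter windows (GRCm38.p6). Each run has 250 bases before the RefSeq start and reads 5′ to 3′ on the gene's strand. The runs are chr16:23890845-23891094 on the minus strand for Sst, chr6:49822460-49822709 on the plus strand for Npy and chr10:5638968-5639217 on the plus strand for Vip. Capitals mark the 8 letters TGACGTCA, the cyclic AMP response element, which reads the same on both strands.
Sst: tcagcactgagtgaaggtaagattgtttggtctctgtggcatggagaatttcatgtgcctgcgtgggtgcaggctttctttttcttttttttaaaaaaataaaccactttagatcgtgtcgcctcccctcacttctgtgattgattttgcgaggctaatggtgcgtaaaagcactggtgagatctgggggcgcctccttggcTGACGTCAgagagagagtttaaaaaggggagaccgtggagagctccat
Npy: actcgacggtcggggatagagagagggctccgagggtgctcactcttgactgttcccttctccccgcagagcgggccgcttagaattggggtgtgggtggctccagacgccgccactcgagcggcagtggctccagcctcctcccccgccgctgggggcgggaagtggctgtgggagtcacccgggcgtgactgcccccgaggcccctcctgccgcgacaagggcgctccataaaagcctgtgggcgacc
Vip: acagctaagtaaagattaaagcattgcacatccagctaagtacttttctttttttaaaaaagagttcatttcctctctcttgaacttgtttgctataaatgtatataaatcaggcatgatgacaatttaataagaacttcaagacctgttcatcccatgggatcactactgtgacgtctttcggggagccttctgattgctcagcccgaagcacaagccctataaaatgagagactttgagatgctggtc
The capitals in Sst begin 48 bases before the RefSeq start. For Sst the 2 annotations differ: the RefSeq start and the capitals lie inside the GENCODE span given above. The same letters were found in 588 of 32851 windows from 250 bases before to 50 after a start (1.79%). Of the 10 precursors 8 had a window, and of their 10 windows only that of Sst held the letters.

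The groups differed in library properties, most in PFC. Interneurons had medians of 5746 to 9199 UMIs per nucleus in the 9 Hip libraries and of 6161 to 6644 in PFC of GF mice, but of 2836 to 3727 in PFC of SPF and CGF mice. Gm42418, a gene that overlaps ribosomal RNA, stood at 11800 to 22500 CPM (counts-per-million of the UMIs of the class) in interneurons in PFC of SPF and CGF mice and 135 to 211 in PFC of GF mice. In Hip it stood at 219 to 311 in GF mice and 504 to 1650 in the other 2 groups. Mitochondrial UMIs made up 0.451% to 0.879% of all UMIs in Hip of GF mice, 0.114% to 0.429% of SPF and 0.0686% to 0.201% of CGF mice, and in PFC 0.305% to 0.556%, 1.49% to 2.86% and 1.21% to 2.09%. In both regions, microbial state and these properties cannot be told apart. Other GABAergic markers were present in 49.2% to 74.3% of interneurons in Hip and 61.1% to 82.2% in PFC, with the highest values in GF mice in both regions. Excitatory nuclei carried the dentate marker Prox1 at 58.2 to 112 CPM in Hip and 1.08 to 3.27 in PFC, and the upper-layer marker Cux2 at 8.3 to 67.8 and 165 to 272. Prox1 was thus higher in Hip and Cux2 in PFC in every library. Libraries shared 0.0854% to 0.362% of the smaller library's barcodes over 153 pairs.

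Per nucleus, interneurons held more Sst, Npy and Vip than glia, while in excitatory neurons several precursors were not distinguishable from glia. As droplets can take up free RNA, UMIs per 100 nuclei in a neuron class were set beside those in oligodendrocytes and astrocytes of the same libraries, which should hold little of these RNAs. Sst averaged 59.0 UMIs per 100 Hip interneurons against 24.4 in glia, and 144 against 23.6 in PFC. Npy averaged 17.2 against 4.88 in Hip and 128 against 12.2 in PFC. Vip averaged 22.4 against 4.58 in Hip and 47.7 against 6.33 in PFC. Each of these was higher than in glia in 9 of 9 libraries (exact sign-flip permutation test over 9 libraries, two-sided, adjusted p = 0.00651 over 40 tests). Neuronal nuclei were deeper than glial ones, and in CPM the order did not always hold. Sst averaged 49.95 CPM in interneurons of Hip of SPF mice against 74.3 in oligodendrocytes and 61.7 in astrocytes, and 35.8 against 55.7 and 48.6 in CGF mice, but 149 against 105.5 and 76.8 in GF mice. Npy in SPF mice stood at 11.6 against 12.1 and 13.1 there. In PFC the means of Sst, Npy and Vip were higher in interneurons than in both glial types in all 3 groups on this scale too.

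Per nucleus, the exceptions in interneurons were Pdyn in Hip and Adcyap1. Pdyn stood at 1.37 against 1.12 UMIs per 100 nuclei in Hip (exact test, adjusted p = 0.217). Adcyap1 stood at 0.719 against 0.563 in Hip (0.469) and 1.36 against 0.805 in PFC (0.0554). Cck passed on this scale, at 124 against 101 in Hip and 115 against 86.1 in PFC. In CPM, with UMIs of oligodendrocytes and astrocytes pooled, interneurons held less Cck than glia in GF and SPF mice of both regions. The same held in Hip of CGF mice, and in PFC of CGF mice the levels were close. In excitatory neurons of Hip, Sst (25.1 against 24.4), Npy (4.97 against 4.88), Vip (4.10 against 4.58), Tac1 (1.45 against 1.41) and Crh (0.252 against 0.213) did not pass the test. Their adjusted p of the exact test ran from 0.107 to 0.812, so these levels were not distinguishable from those in glia. In PFC excitatory neurons the same held for Vip (8.12 against 6.33), Tac1 (2.74 against 2.35) and Pdyn (2.22 against 1.21). Cck (139 against 101 in Hip and 172 against 86.1 in PFC), Cort (2.27 against 0.907 and 4.68 against 2.00) and Penk (2.85 against 1.70 and 6.45 against 2.98) were higher in excitatory neurons than in glia in 9 of 9 libraries of both regions. Adcyap1 was so in 9 of 9 libraries of PFC, at 4.71 against 0.805. For Cck the order turned in CPM in Hip. Excitatory neurons averaged 280 in GF mice against 605 in oligodendrocytes and 511.7 in astrocytes. In SPF mice they averaged 93.9 against 221 and 179. Against the pooled glia, Cck in excitatory neurons was lower in CPM in Hip of CGF mice and in PFC of GF mice too. Penk and Cort were lower on this scale in both regions of GF mice and in Hip of SPF mice. Penk was so in both regions of CGF mice too, on 10 glial UMIs in PFC. Cort was so in PFC of SPF mice, on 7 glial UMIs. Adcyap1 was lower in PFC of GF mice. In PFC of SPF mice, Penk and Adcyap1 were not lower than in glia. The glial reference itself was not even: Cck reached 143 to 175 UMIs per 100 glial nuclei in Hip of GF mice against 63.4 to 107 in SPF mice.

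**Figure D1:**
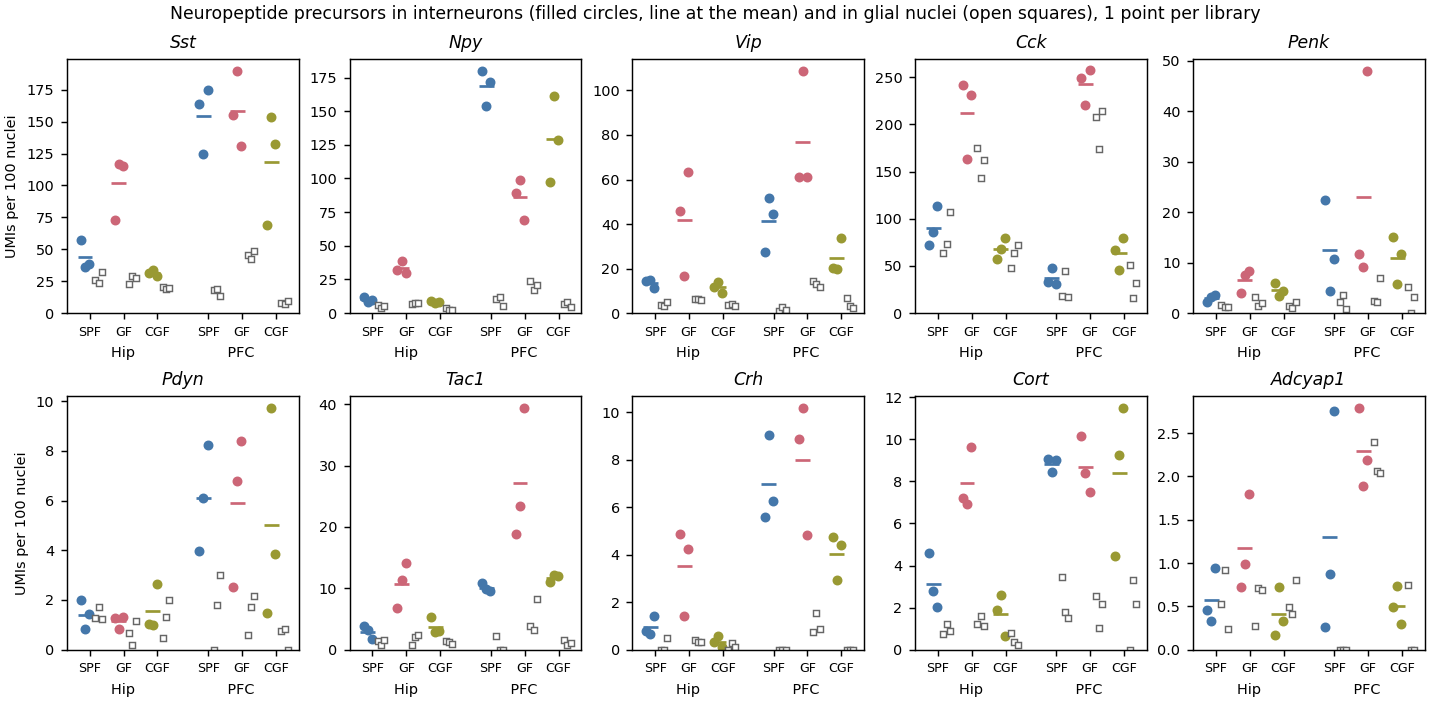
UMIs per 100 nuclei (vertical axis, linear, a scale of its own in each panel) of the 10 precursors in interneurons, 1 filled circle per library with a line at the group mean, and in glial nuclei of the same library (open squares), by region and group. Npy in Hip interneurons lies higher in all 3 GF libraries than in any SPF or CGF library, and in PFC lower than in any SPF library but with overlap with CGF, while the squares of Cck rise with the circles in GF mice.

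Setting the classes against each other within a region, with edgeR's quasi-likelihood test on class sums (Benjamini-Hochberg adjustment over all genes), 7 of 10 precursors were higher in interneurons than in excitatory neurons in Hip and 8 of 10 in PFC. Over all genes tested, 21.9% were higher in interneurons in Hip and 19.7% in PFC. In PFC the log2 differences were 3.13 ± 0.17 (SE) for Npy, 3.1 ± 0.18 for Crh, 3.07 ± 0.21 for Tac1, 2.94 ± 0.15 for Vip, 2.84 ± 0.16 for Sst, 1.75 ± 0.27 for Pdyn, 1.65 ± 0.30 for Penk and 1.25 ± 0.16 for Cort. In Hip they were smaller for most: 2.65 ± 0.37 for Crh, 2.47 ± 0.24 for Vip, 2.08 ± 0.27 for Tac1, 1.79 ± 0.19 for Npy, 1.28 ± 0.19 for Sst, 0.98 ± 0.24 for Cort and 0.89 ± 0.19 for Penk. Whether this gap between regions was larger than its error was not tested. With nuclei thinned to 2000 UMIs, 3 precursors instead of 7 were called in Hip. For sums of thinned nuclei the classes were set anew after thinning, and precursors with too few UMIs left were not tested.

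Cck and Adcyap1 were lower in interneurons than in excitatory neurons of PFC, by -0.36 ± 0.13 (edgeR, adjusted p = 0.0288) and -1.37 ± 0.23 (adjusted p = 2.79e-05), where 24.7% of all genes were lower. The call of Cck was lost without mouse 18, 30 or 32 (-0.28 to -0.31). In Hip, Cck differed by 0.04 ± 0.13, Pdyn by -0.18 ± 0.24 and Adcyap1 by -0.61 ± 0.26 (edgeR, adjusted p = 0.0718). With the mouse as a block, Adcyap1 was lower in Hip interneurons at -0.61 (edgeR, adjusted p = 0.0256).

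Within PFC interneurons, Pdyn, Npy and Cort were higher in nuclei with Sst, Crh, Penk and Cck in nuclei with Vip, Npy in nuclei with Lamp5 and Tac1 in nuclei with Pvalb. Nuclei with 2 or more UMIs of an index gene (Sst, Vip, Pvalb or Lamp5) were set beside nuclei with 0 UMIs of it in the same library, and levels in CPM were compared over 9 libraries. The p-values of the exact sign-flip permutation test were adjusted over the 38 pairs of index gene and precursor in each region. The index nuclei numbered 1014 for Sst, 369 for Vip, 305 for Lamp5 and 271 for Pvalb in PFC, and 596, 201, 259 and 88 in Hip.

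Sst nuclei of PFC held Pdyn at a mean of 45.4 CPM against 3.68 in nuclei without Sst, Npy at 437 against 270 and Cort at 27.3 against 16.7. Pdyn and Npy were higher in 9 of 9 libraries (exact test, adjusted p = 0.0078 for each) and Cort in 8 of 9 (0.023). The groups differed: in GF mice Cort stood at 11.8 against 11.7 and Npy at 145 against 119, while in SPF mice Cort stood at 34.1 against 20.9 and Npy at 670 against 375. In Hip, Sst nuclei held Npy at 48.6 against 17.8 in 9 of 9 libraries (exact test, adjusted p = 0.012), while Pdyn, at 3.27 against 1.39, did not pass (0.23).

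Vip nuclei of PFC held Crh at 131 CPM against 4.15 in nuclei without Vip, Penk at 83.0 against 27.7 and Cck at 352 against 197. Crh was higher in 9 of 9 libraries, Penk and Cck in 8 of 9. In Hip, Vip nuclei held Penk at 47.6 against 4.04 in 9 of 9 libraries and Cck at 256 against 157 in 8 of 9. Crh there, at 18.5 against 1.25, was higher in 6 of 9 libraries and did not pass the exact test (adjusted p = 0.059). Vip nuclei were poor in Sst, Npy and, in PFC, in Pdyn (0.457 against 13.9) and Tac1 (13.1 against 35.0).

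Lamp5, a marker of neurogliaform cells, went with Npy at 762 against 225 CPM in 9 of 9 PFC libraries and at 54.6 against 19.6 in 7 of 9 Hip libraries. Pvalb, the marker of fast-spiking basket cells, went with Tac1 at 58.2 against 27.3 in 8 of 9 PFC libraries (exact test, adjusted p = 0.013). The same pair in Hip, at 18.3 against 6.57, did not pass (0.078). Pvalb nuclei were low in the other precursors that passed the test, such as Vip at 11.4 against 114 and Crh at 0.963 against 16.2 in PFC.

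In excitatory neurons of Hip, nuclei with 2 or more UMIs of Prox1 held Pdyn at 4.56 CPM against 1.09 in 9 of 9 libraries (exact test, adjusted p = 0.019, over 10 pairs in Hip and separately over 40 in PFC). Sst (27.2 against 24.4), Npy (6.03 against 4.76) and Vip (5.54 against 3.84) were also past the test there in 8 of 9 libraries. Their levels in Hip excitatory neurons as a whole were not distinguishable from those in glia. In PFC, Cux2 nuclei held Penk at 13.9 against 7.85, Pdyn at 4.90 against 2.83 and Cck at 235 against 207. Fezf2 nuclei, marked by a gene of subcortically projecting deep-layer cells, held Adcyap1 at 12.8 against 6.33 in 7 of 9 libraries (exact test, adjusted p = 0.045). The means were 17.9 against 6.26 in CGF and 14.3 against 6.78 in SPF mice, but 6.35 against 5.95 in GF mice, and this difference between groups was not tested. Rorb nuclei held Penk at 3.37 against 12.6 and Crh at 0.625 against 1.67, lower in 9 of 9 libraries.

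**Figure D2:**
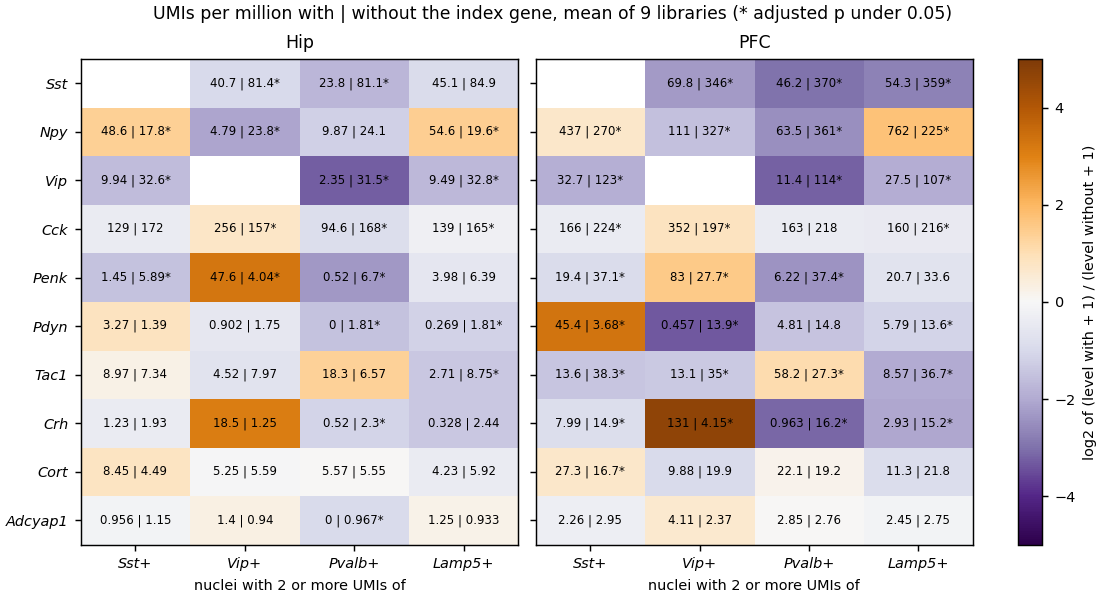
Mean CPM of each precursor in interneurons with 2 or more UMIs of the index gene and in those with none (first and second number in a cell, mean of 9 libraries), with an asterisk for an adjusted p under 0.05 of the exact sign-flip test; colour shows the log2 ratio after adding 1 to each mean. Pdyn in Sst nuclei, Crh and Penk in Vip nuclei and Npy in Lamp5 nuclei stand out in PFC.

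The first comparison between groups asked how the absence of a microbiota went with precursor levels in Hip. In Hip interneurons, 8 of the 9 precursors tested were higher in GF than in SPF mice, where 18.1% of all genes tested were higher. Some other interneuron genes were also at higher levels in the same sums. Slc32a1 averaged 95.6 CPM in GF and 24.0 in SPF mice, Lamp5 43.5 and 17.3, Pvalb 21.6 and 8.5 and Dlx6os1 535 and 277. Of 6 interneuron markers, 4 stood above SPF mice and 0 below, and of 10 subclass markers 3 stood above and 1 below. The 10 summed to 3634 to 6513 CPM in GF and 3395 to 5811 in SPF mice. The part of class makeup in the result was not tested. Adcyap1 had too few UMIs to be tested (2 to 8 in the SPF, 4 to 11 in the GF and 1 to 5 in the CGF libraries). Pdyn, at -0.13 ± 0.53, did not pass.

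Sst had 62.6, 40.8 and 46.5 CPM in SPF, 91.7, 181 and 174 in GF and 31.4, 38.8 and 37.2 in CGF interneurons of Hip. Npy had 13.5, 9.42 and 11.8 in SPF, 40.4, 59.2 and 45.4 in GF and 8.75, 8.66 and 10.2 in CGF interneurons. For both genes every GF library was above every SPF and CGF library. The log2 fold change of GF over SPF was 1.44 ± 0.23 for Sst (edgeR, adjusted p = 0.00135) and 1.93 ± 0.16 for Npy (adjusted p = 0.000109).

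Vip had 15.7, 16.6 and 13.4 CPM in SPF, 57.9, 25.5 and 96.0 in GF and 11.8, 16.3 and 11.7 in CGF interneurons of Hip. Its GF libraries were all above the others but spread widely, with mouse 6 lowest, and the log2 fold change over SPF was 1.85 ± 0.39 (edgeR, adjusted p = 0.00504). Tac1 had 4.21, 3.69 and 2.14 in SPF, 8.63, 17.4 and 21.3 in GF and 5.32, 3.33 and 3.95 in CGF interneurons, a log2 fold change of 2.11 ± 0.36 (adjusted p = 0.0019). GF libraries of Tac1 did not overlap those of either other group. Cck had 78.7, 96.8 and 137 in SPF, 304, 251 and 351 in GF and 57.0, 78.4 and 102 in CGF interneurons, a log2 fold change of 1.42 ± 0.22 (adjusted p = 0.00115).

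The rarer precursors followed on few UMIs. Crh had 5, 4 and 12 UMIs in the SPF libraries, 27, 10 and 26 in the GF and 2, 4 and 1 in the CGF libraries, and a log2 fold change of 1.99 ± 0.52 over SPF (edgeR, adjusted p = 0.0143). Cort had 30, 17 and 17 UMIs in SPF, 40, 49 and 59 in GF and 11, 18 and 6 in CGF libraries (1.56 ± 0.39, adjusted p = 0.011). Penk had 14, 20 and 30 in SPF, 22, 53 and 51 in GF and 35, 23 and 39 in CGF libraries (1.35 ± 0.35, adjusted p = 0.013). Penk in GF mouse 5, at 5.0 CPM, lay among the CGF libraries (3.83 to 6.01).

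Against CGF mice, 7 of 9 precursors were higher in GF interneurons of Hip, where 19.2% of all genes were higher. The log2 differences were 3.46 ± 0.62 for Crh, 2.40 ± 0.42 for Cort, 2.20 ± 0.16 for Npy, 1.99 ± 0.40 for Vip, 1.86 ± 0.24 for Sst, 1.75 ± 0.22 for Cck and 1.71 ± 0.35 for Tac1, while Penk (0.73 ± 0.33) and Pdyn (-0.41 ± 0.51) did not pass. GF minus SPF and GF minus CGF share the GF libraries. Between CGF and SPF mice, 0 of 9 precursors passed with edgeR, 0 had an unadjusted p under 0.05 and 0 passed with DESeq2, where 0.0611% of all genes were called. The largest of these differences was -1.48 ± 0.73 for Crh.

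Short genes as a whole were higher in Hip of GF mice. The 4152 tested genes that span up to 13280 bp, the span of the longest precursor gene, had a median log2 fold change of 0.53 between GF and SPF interneurons against -0.15 for longer genes, and 38.9% of them were called higher, as were 42.8% between GF and CGF interneurons. With nuclei thinned to 2000 UMIs, 4 precursors were called over SPF and 4 over CGF mice, where precursors with too few UMIs left were not tested. Once trends of the libraries on length and GC content of genes were removed, 4 precursors instead of 8 were called (70.9% of 2722 calls were then higher, against 52.1% of 5125), and Sst stood at 0.61, Penk at 0.86, Cort at 0.80 and Crh at 1.29 without passing. Without mouse 7, 5 were called: Penk, Crh and Cort had adjusted p of 0.0511 to 0.0595 (edgeR). Penk also lost its call without mouse 30 (1.16), and Crh without mouse 5, 30 or 31 (1.77 to 1.85).

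Glial levels in the same Hip libraries depended on the scale. Per 100 glial nuclei, Sst was at 22.7 to 28.8 UMIs in GF and 24.0 to 31.9 in SPF mice, and Npy at 6.57 to 7.42 and 3.57 to 5.68. In CPM, oligodendrocytes averaged 105.5 for Sst and 24.6 for Npy in GF mice against 74.3 and 12.1 in SPF mice. Taking the glial level per nucleus from each interneuron left Sst at a mean of 110 CPM in GF against 18.8 in SPF mice, Npy at 38.1 against 6.14, Vip at 50.7 against 10.9, Tac1 at 13.2 against 1.96 and Cck at 72.8 against 10.8. All 8 differences kept their direction after this step, which was chosen after seeing the data. Nuclei with other GABAergic markers made up 72.7% to 74.3% of GF, 49.2% to 62.2% of SPF and 54.3% to 63.8% of CGF interneurons in Hip, and nuclei with oligodendrocyte markers 2.34% to 4.80%, 5.25% to 16.3% and 6.69% to 7.09%. With a stricter rule for classes (4 or more UMIs of Gad1 and Gad2 and 0 of Slc17a7), 6 precursors were called.

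In excitatory neurons of Hip, 5 of the 9 precursors tested were higher in GF than in SPF mice, where 24.0% of all genes were higher. Genes as short as the precursors were called higher in 44.5% of cases, with a median log2 fold change of 0.51. Cck had 68.8, 83.2 and 130 CPM in SPF, 271, 273 and 297 in GF and 48.2, 73.8 and 91.3 in CGF mice, with no overlap of GF with the others and a log2 fold change of 1.49 ± 0.23 (edgeR, adjusted p = 0.000909). The glial level of Cck rose with it, and net of that level Cck averaged 97.1 in GF against 15.9 in SPF mice. Cort, at 0.977, 2.16 and 1.38 in SPF and 3.87, 5.12 and 3.47 in GF mice, rose by 1.36 ± 0.30 (adjusted p = 0.00529), and Adcyap1, at 0.941, 0.959 and 0.947 and 1.48, 2.25 and 2.84, by 1.09 ± 0.30 (adjusted p = 0.014).

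Penk (0.75 ± 0.26) and Vip (0.65 ± 0.20) were the other 2 that rose. For Vip, whose level in Hip excitatory neurons was not above glia, the difference of 2.47 CPM became -1.11 net of the glial level. Sst (0.20 ± 0.20), Npy (0.55 ± 0.24), Pdyn (0.32 ± 0.33) and Tac1 (0.55 ± 0.36) did not pass, and Crh had 1 to 13 UMIs per library and was not tested. The 5 calls fell to 3 without mouse 5, 7, 30 or 31, to 2 with the trend on length and GC content removed or with stricter classes, and to 1 with nuclei thinned to 2000 UMIs.

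Against CGF mice, 8 of 9 precursors were higher in GF excitatory neurons of Hip, where 24.0% of all genes were higher, with Cck at 1.82 ± 0.24, Tac1 at 1.43 ± 0.39, Cort at 1.29 ± 0.31, Adcyap1 at 1.20 ± 0.31 and Npy at 1.01 ± 0.25. Vip (0.91 ± 0.20), Penk (0.80 ± 0.26) and Sst (0.62 ± 0.20) were the others. The count fell to 5 without mouse 17 or with stricter classes, to 4 with the trend removed and to 1 with thinned nuclei. Sst lost its call without mouse 6, 7, 17 or 18 (0.46 to 0.60), Penk without mouse 5, 6, 17 or 18 (0.65 to 0.78) and Tac1 without mouse 17 (1.17). Between CGF and SPF mice, 0 of 9 passed with edgeR, 0 at an unadjusted p under 0.05 and 0 with DESeq2, where 0.433% of all genes were called.

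**Figure D3:**
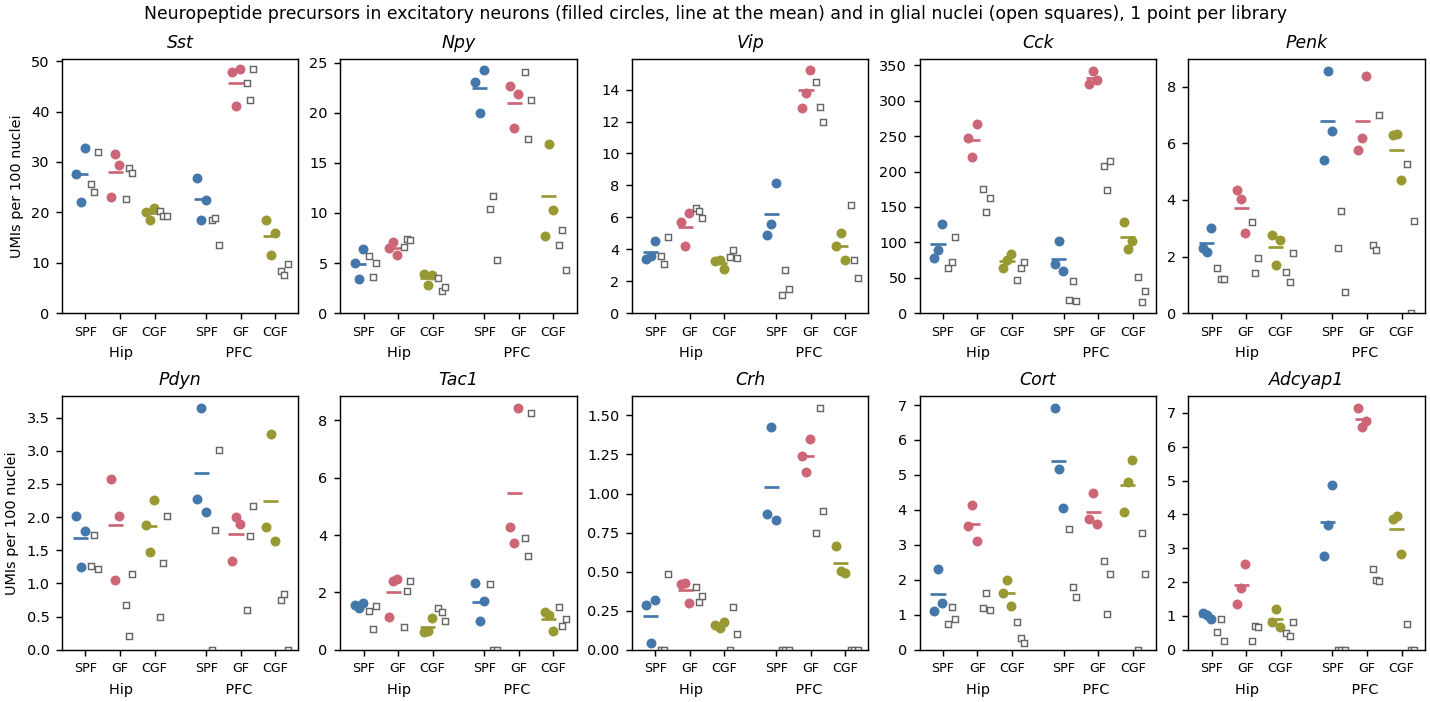
UMIs per 100 nuclei (vertical axis, linear, a scale of its own in each panel) of the 10 precursors in excitatory neurons, 1 filled circle per library with a line at the group mean, and in glial nuclei of the same library (open squares), by region and group. Sst, Npy and Vip circles of Hip lie close to the squares, and Cck lies above them, highest in GF mice.

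In PFC interneurons the direction differed between precursors. Of 9 tested, 1 was higher and 3 were lower in GF than in SPF mice, where 47.7% of all genes were called in either direction. Markers of the class moved with the group in both directions. Dlx1 averaged 82.2 CPM in SPF and 28.7 in GF mice, Pvalb 79.2 and 34.2 and Slc32a1 35.0 and 93.3. Nuclei that met the rule for interneurons made up 10.01% to 12.1% of GF and 4.98% to 6.59% of SPF nuclei. The part of class makeup and of depth in the result was not tested. Npy had 493, 409 and 447 CPM in SPF, 133, 143 and 99.5 in GF and 280, 395 and 368 in CGF mice. Every GF library was below every SPF and CGF library, and the log2 fold change over SPF was -1.79 ± 0.16 (edgeR, adjusted p = 7.93e-07). Sst had 450, 332 and 456 in SPF, 230, 274 and 188 in GF and 199, 375 and 380 in CGF mice, so that GF lay below SPF but overlapped CGF, at -0.78 ± 0.22 (adjusted p = 0.00901). Cort had 24.8, 22.5 and 23.5 in SPF, 15.1, 12.1 and 10.8 in GF and 12.8, 22.6 and 32.9 in CGF mice (-0.85 ± 0.27, adjusted p = 0.0184), a call lost without mouse 7, 30 or 32 (-0.74 to -0.84).

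Cck moved the other way, with 90.4, 126 and 80.2 CPM in SPF, 371, 318 and 370 in GF and 192, 112 and 228 in CGF interneurons of PFC. Its log2 fold change of GF over SPF was 1.90 ± 0.20 (edgeR, adjusted p = 3.57e-06). The glial level of Cck was 174 to 214 UMIs per 100 nuclei in PFC of GF mice against 17.3 to 45.1 in SPF mice, and net of it Cck averaged 63.9 against 27.2 CPM. Npy net of glia averaged 94.7 in GF against 425 in SPF mice, and Sst 164 against 367.

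Per nucleus, a scale that does not divide by depth, PFC values looked different. GF nuclei were deeper, and the part of depth in the lower Sst level in CPM was not tested. Sst averaged 158 ± 30 UMIs per 100 interneurons (SD, n = 3) in GF and 155 ± 26 in SPF mice of PFC, while Npy was still lower, at 85.9 ± 15 against 168 ± 13. Vip (0.08 ± 0.26), Penk (0.08 ± 0.59), Pdyn (-0.85 ± 0.50), Tac1 (0.62 ± 0.25, edgeR, adjusted p = 0.0503) and Crh (-0.63 ± 0.31) did not pass between GF and SPF mice. Penk was spread within all 3 groups, with 61.2, 11.6 and 28.0 CPM in SPF, 17.3, 13.2 and 69.0 in GF and 43.5, 14.3 and 33.8 in CGF mice, and 9 nuclei of GF mouse 7 with 10 or more UMIs held 25.9% of the Penk UMIs.

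Against CGF mice, Npy (-1.42 ± 0.16) and Cort (-0.72 ± 0.27) were lower and Cck (1.07 ± 0.19) and Vip (0.82 ± 0.27) higher in GF interneurons of PFC, 4 of 9 where 47.7% of all genes were called. Net of the glial level, the libraries overlapped for Cck, at 61.5 to 67.25 CPM in GF and 44.3 to 138 in CGF mice. Without mouse 6 or 18, and with stricter classes or the trend removed, 2 were called. Vip lost its call without mouse 6, 17 or 18 (0.50 to 0.72) and Cort without mouse 6, 7, 18 or 19 (-0.43 to -0.71). Between CGF and SPF mice, 0 of 9 passed with edgeR and 0 with DESeq2, 3 had an unadjusted p under 0.05, and 0.11% of all genes were called. The count was 1 without mouse 18 and 2 without a filter on low counts. The largest of these differences were 0.83 ± 0.21 for Cck and -0.74 ± 0.29 for Vip.

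In excitatory neurons of PFC, 1 precursor was higher and 5 were lower in GF than in SPF mice of 10 tested, where 61.7% of all genes were called. Cck had 141, 201 and 114 CPM in SPF, 304, 296 and 290 in GF and 226, 173 and 244 in CGF mice, with GF above both (1.11 ± 0.16 over SPF, edgeR, adjusted p = 7.82e-05). Net of the glial level, Cck averaged 119 in GF against 99.0 in SPF mice, and the libraries overlapped (101 to 145 and 81.2 to 112). The CGF libraries stood at 137 to 169 on that scale. Markers of excitatory types moved with the group as well: Rorb stood at 171 to 226 CPM in GF and 98.0 to 114 in SPF mice, and Cux2 averaged 180 and 237 and Lamp5 80.7 and 110. Penk was low in Rorb nuclei and high in Cux2 nuclei, as given above, and the part of class makeup in the falls below was not tested. The 2 opioid precursors fell: Pdyn from 4.66, 7.18 and 3.98 in SPF to 1.26, 1.73 and 1.67 in GF mice (-1.62 ± 0.30), and Penk from 11.1, 16.8 and 12.3 to 5.39, 5.35 and 7.37 (-1.02 ± 0.18). CGF mice had 3.25, 6.18 and 3.93 of Pdyn and 10.99, 12.03 and 11.24 of Penk, above every GF library. Pdyn in this class did not pass the test against glia. Net of the glial level it averaged 0.236 in GF against 2.17 in SPF mice, but the libraries overlapped (-0.236 to 0.695 and -1.79 to 4.66). The glial reference of SPF mice held 6 Pdyn UMIs in 331 nuclei.

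Cort fell from 14.2, 10.2 and 7.80 CPM in SPF to 3.52, 3.87 and 3.16 in GF excitatory neurons of PFC (-1.45 ± 0.23), Npy from 47.3, 39.3 and 46.5 to 21.2, 15.9 and 19.2 (-1.10 ± 0.24), and Crh from 1.79, 2.80 and 1.59 to 1.16, 0.980 and 1.19 (-0.77 ± 0.26). For Npy the CGF libraries, at 13.5, 32.2 and 24.6, overlapped GF. Net of the glial level, Npy averaged 0.0232 CPM in GF against 26.3 in SPF excitatory neurons of PFC, and Penk 2.60 against 9.01. Crh lost its call without mouse 31 (-0.47) or 6 (-0.69). With nuclei thinned to 2000 UMIs, Npy stood at -0.56 (edgeR, adjusted p = 0.0564) and Penk at -0.54 (0.245). Sst (0.01 ± 0.17), Vip (0.16 ± 0.19), Tac1 (0.72 ± 0.35) and Adcyap1 (-0.15 ± 0.19) did not pass.

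Against CGF mice, 7 of 10 precursors were called in PFC excitatory neurons, where 60.5% of all genes were called. Tac1 (1.38 ± 0.37), Vip (0.75 ± 0.19), Cck (0.65 ± 0.16) and Sst (0.59 ± 0.17) were higher and Pdyn (-1.36 ± 0.30), Cort (-1.27 ± 0.24) and Penk (-0.75 ± 0.19) lower in GF mice. Net of the glial level, Cck stood at 101 to 145 CPM in GF and 137 to 169 in CGF mice. On that scale Sst stood at -1.10 to 2.07 and 7.71 to 17.9, so that neither was higher in GF mice. The levels of Tac1 and Vip in PFC excitatory neurons were not distinguishable from those in glia, whose levels of both were also higher in GF mice. Between CGF and SPF mice, 0 of 10 passed with edgeR and 1 with DESeq2, 5 had an unadjusted p under 0.05, and 0.239% of all genes were called. The count was 1 without mouse 18 and 1 without a filter on low counts.

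**Figure D4:**
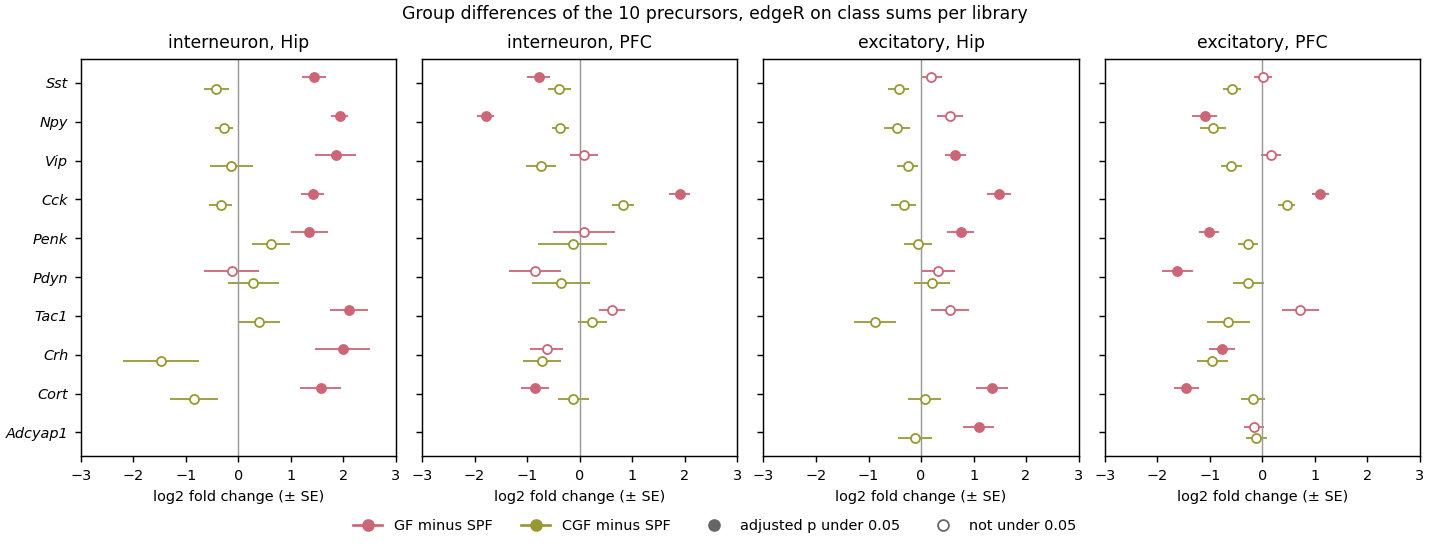
Log2 fold change with its standard error of each precursor for GF minus SPF (red) and CGF minus SPF (olive), from edgeR on the 9 libraries of a region, by class and region; filled points have an adjusted p under 0.05 over all genes. In Hip interneurons 8 red points lie to the right, in PFC interneurons Npy, Sst and Cort lie to the left and Cck to the right, and no olive point is filled.

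The shares of nuclei with at least 1 UMI, after thinning to equal depth, separated GF from SPF libraries for some of the called precursors and not for others. For these shares the class of each nucleus was set before thinning, so that which nuclei counted still depended on depth. A lower class sum can come from fewer nuclei with the RNA or from less RNA in each, and the sums do not tell these apart. After thinning each nucleus to 2000 UMIs, which left out 9 to 190 shallower interneurons per library, 7.28% ± 0.87 (SD, n = 3) of GF, 2.19% ± 0.43 of SPF and 2.16% ± 0.63 of CGF interneurons of Hip had an Npy UMI, against 17.5%, 8.66% and 6.94% before thinning. For Sst the thinned shares were 18.4% ± 4.7, 9.94% ± 2.9 and 7.47% ± 0.44, and for Tac1 2.71% ± 0.65, 0.621% ± 0.33 and 0.772% ± 0.092. For these 3 genes every GF library was above every SPF library, while for Vip (6.93% against 3.27%) and Crh (1.11% against 0.31%), both called by level, the groups overlapped. Cck, Cort and Penk were also higher in every GF than in every SPF library. So was Adcyap1, at 0.394% against 0.108% of thinned nuclei, a gene with too few UMIs to be tested by level. The share of all genes that separate in this way was not computed. At 1000 UMIs per nucleus Vip did not overlap (4.53% against 1.84%), while Penk and Adcyap1, which did not overlap at 2000 UMIs, did. In excitatory neurons of Hip, the called Penk, Vip and Adcyap1 overlapped too, as did Crh in those of PFC. An exact permutation test of 3 against 3 libraries cannot go below 0.1, which was the p where groups did not overlap.

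In PFC interneurons Npy UMIs were found in 28.0% ± 1.4 of thinned SPF nuclei, 24.0% ± 5.2 of CGF and 16.5% ± 2.0 of GF nuclei, against 34.0%, 26.6% and 32.7% before thinning. The thinned share with Cort was also lower in every GF than in every SPF library, and that with Cck higher. Sst, called lower by level, overlapped, at 24.4% of GF and 26.7% of SPF nuclei. Sst and Cck UMIs were also common in oligodendrocytes, and their source there was not tested. Oligodendrocytes, with median depths of 1944 to 3260 UMIs in Hip, had an Sst UMI in 22.8% ± 2.5 of GF and 23.2% ± 2.9 of SPF nuclei, and a Cck UMI in 78.0% ± 3.8 and 54.0% ± 9.6. The unthinned shares in Hip interneurons were 34.3% and 29.0% for Sst and 80.7% and 55.4% for Cck. Those nuclei were deeper than the oligodendrocytes, so that these shares are not at like depth. Thinned to 2000 UMIs, the interneuron shares were 18.4% and 9.94% for Sst and 45.3% and 22.8% for Cck. Each of these was below the unthinned share in oligodendrocytes. The oligodendrocyte shares of Npy in Hip were 5.93% and 4.23%, against 7.28% and 2.19% of interneurons thinned to 2000 UMIs.

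For some precursors and groups, part of the RNA stood in few nuclei. Interneurons with 10 or more UMIs of Sst numbered 37 of 1875 over the 3 GF libraries of Hip. They numbered 4 of 2105 over the SPF and 1 of 2176 over the CGF libraries. They held a mean of 28.5% of the Sst UMIs in GF mice. For Vip the numbers were 15, 1 and 1. In PFC, interneurons with 10 or more UMIs of Npy numbered 36 of 2680 over the GF libraries. They numbered 52 of 1119 over the SPF and 50 of 1359 over the CGF libraries. They held means of 24.2%, 52.3% and 52.5% of the Npy UMIs in GF, SPF and CGF mice. All these counts are of nuclei before thinning, and GF nuclei of PFC were deeper.

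Between regions, precursor levels were lower in Hip than in PFC in most comparisons. In SPF interneurons 9 of 10 precursors were lower in Hip, where 22.7% of all genes were, and in CGF interneurons 9 of 10, where 24.7% were. Some markers of interneurons were lower in Hip as well, with means in SPF mice of 17.1 CPM in Hip and 82.2 in PFC for Dlx1, 8.5 and 79.2 for Pvalb and 17.3 and 66.1 for Lamp5. The sums of 10 subclass markers overlapped in SPF mice, at 3395 to 5811 CPM in Hip and 4415 to 5750 in PFC. In GF mice Dlx1 averaged 25.7 and 28.7 and Pvalb 21.6 and 34.2. Interneurons of SPF mice were also deeper in Hip than in PFC, and the part of depth and makeup in the region result was not tested. Npy had the widest gap, at -5.11 ± 0.19 in SPF and -5.03 ± 0.19 in CGF mice, followed by Crh at -3.84 ± 0.47 and -4.60 ± 0.58. Sst stood at -2.88 ± 0.27 and -2.94 ± 0.27, Vip at -2.70 ± 0.39 and -2.10 ± 0.41, and Tac1 at -2.86 ± 0.37 and -2.71 ± 0.34. Cck was the exception in SPF mice (0.24 ± 0.25) and Adcyap1 in CGF mice (-1.30 ± 0.86). Of the calls in SPF mice, Adcyap1 (-2.15 ± 0.69) was lost without mouse 32 (-1.5), and of those in CGF mice Penk was lost without mouse 17 (-2.09) and Pdyn without mouse 18 (-1.37).

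In GF interneurons 3 of 10 precursors were lower in Hip, where 1.1% of all genes were: Pdyn (-2.42 ± 0.59), Npy (-1.38 ± 0.16) and Tac1 (-1.36 ± 0.27). Over all genes, 366 were called in either direction between the regions in GF interneurons, against 7525 in SPF and 7718 in CGF interneurons. Sst (-0.65 ± 0.24), Vip (-0.91 ± 0.34), Penk (-1.82 ± 0.55) and Crh (-1.23 ± 0.38) did not pass. The call of Pdyn was lost without mouse 5, 6, 7 or 31 (-2.16 to -2.79). The count was 6 without a filter on low counts and 1 with thinned nuclei.

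In excitatory neurons, all 10 precursors were lower in Hip in SPF mice (31.7% of all genes) and in CGF mice (32.9%), and 6 of 10 in GF mice (15.4%). Crh (-3.12 ± 0.39), Npy (-3.07 ± 0.27), Adcyap1 (-2.81 ± 0.26) and Cort (-2.66 ± 0.29) had the widest gaps in SPF mice, and Cck (-0.55 ± 0.21) and Sst (-0.61 ± 0.19) the smallest. With thinned nuclei 3 calls were left in SPF and 4 in CGF mice, and Sst, Cck and Tac1 changed sign in SPF mice. Sst, Cck or Tac1 lost its call in SPF mice without mouse 30, 31 or 32 (-0.23 to -1.02). In CGF mice Sst (-0.46 ± 0.20) lost its call without mouse 7, 17, 19 or 30, Tac1 (-1.23 ± 0.46) without mouse 17 or 18 and Pdyn (-1.10 ± 0.34) without mouse 18.

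In GF excitatory neurons the 6 were Adcyap1 (-1.60 ± 0.23), Npy (-1.46 ± 0.25), Crh (-1.45 ± 0.34), Tac1 (-1.20 ± 0.35), Vip (-1.14 ± 0.19) and Penk (-0.62 ± 0.22), while Cort (0.11 ± 0.27), Pdyn (0.34 ± 0.32) and Cck (-0.20 ± 0.21) did not pass. Penk had an adjusted p of 0.0378 (edgeR), and of 0.0507 with the mouse as a block. Sst, at -0.47 ± 0.19 with an adjusted p of 0.0716, passed with the block (-0.48, 0.0303). The count was 3 without mouse 7 and 3 with thinned nuclei. Penk lost its call without mouse 5, 6, 7 or 17 (-0.27 to -0.78), Tac1 without mouse 5 or 7 (-0.99 and -0.92) and Crh without mouse 7 (-1.24).

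**Figure D5:**
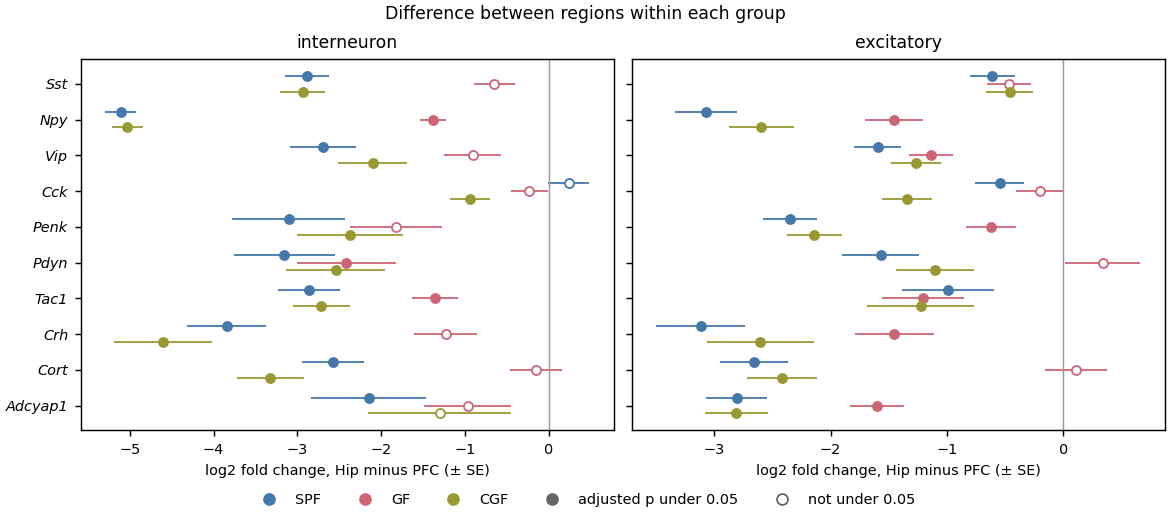
Log2 fold change of Hip minus PFC with its standard error for each precursor within SPF (blue), GF (red) and CGF (olive) mice, in interneurons and in excitatory neurons; filled points have an adjusted p under 0.05 over all genes. Most points lie to the left of 0, and in interneurons the red points lie nearer to 0 than the blue and olive points for all 10 genes.

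The test of whether the GF minus SPF difference itself differed between the regions called 6 of 10 precursors in interneurons, all higher in Hip, where 15.9% of all genes and 26.6% of genes as short as the precursors were called in that direction. The differences were 3.73 ± 0.24 for Npy (edgeR, adjusted p = 3.95e-09), 2.61 ± 0.62 for Crh, 2.42 ± 0.49 for Cort, 2.23 ± 0.35 for Sst, 1.79 ± 0.52 for Vip and 1.5 ± 0.46 for Tac1. In excitatory neurons it called 6 of 10, also higher in Hip, where 23.0% of all and 35.4% of short genes were: Cort (2.77 ± 0.39), Pdyn (1.91 ± 0.46), Penk (1.73 ± 0.31), Crh (1.66 ± 0.53), Npy (1.61 ± 0.36) and Adcyap1 (1.21 ± 0.35). Cck differed by -0.47 ± 0.33 and 0.34 ± 0.30 in the 2 classes, so that its rise in GF mice was not distinguishable between regions. With nuclei thinned the counts were 3 and 2. Vip lost its call without mouse 7, 31 or 32 (1.12 to 1.68), Tac1 without mouse 6 or 32 (1.24 to 1.34), Crh in excitatory neurons without mouse 6 or 31 (0.92 to 1.48) and Adcyap1 without mouse 7 (0.93). The PFC libraries of SPF and CGF mice were the shallow ones, and depth and group cannot be told apart in this test.

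Genes that act on the same pathway were counted in 3 lists. Of all genes tested between GF and SPF mice, 18.1% were higher in interneurons and 24.0% in excitatory neurons of Hip, and in PFC 47.7% and 61.7% were called in either direction. Of 17 genes of peptide processing and dense-core vesicles, 8 were higher and 2 lower in GF than in SPF interneurons of Hip, with a median log2 fold change of 0.65 against -0.002 over all genes tested, and 6 were higher and 2 lower in PFC (-0.090 against 0.015). In excitatory neurons 9 were higher and 1 lower in Hip, and 6 higher and 3 lower in PFC, the latter no larger a share than over all genes. In interneurons, Qpct, which forms the pyroglutamate end of some peptides, rose by 1.67 ± 0.20 in Hip and 1.06 ± 0.26 in PFC, and Pcsk1n, an inhibitor of the convertase Pcsk1, by 1.56 ± 0.18 and 0.35 ± 0.12. Scg5, a chaperone of the convertase Pcsk2, rose by 1.07 ± 0.12 and 0.46 ± 0.14 and Chgb, a granin of the vesicles, by 0.85 ± 0.21 and 0.66 ± 0.15. In excitatory neurons Pcsk1 itself rose by 0.71 ± 0.21 and 1.19 ± 0.23. Between CGF and SPF mice 0 of the 17 passed with edgeR in either class or region.

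A list of 20 genes held receptors, mainly for the members' peptides, and Crhbp, for a binding protein. Of these, 18 were tested in Hip and 12 in PFC interneurons. Between GF and SPF mice, 2 were higher and 2 lower in GF in Hip, and 6 higher and 2 lower in PFC. In excitatory neurons 4 were higher and 2 lower of 19 in Hip, and 8 higher and 4 lower of 16 in PFC, to be read against the 61.7% called over all genes there. Oprm1, the mu opioid receptor, rose in excitatory neurons by 0.79 ± 0.14 in Hip and 2.78 ± 0.14 in PFC. The neuropeptide Y receptors Npy5r (0.92 ± 0.14 and 1.07 ± 0.15) and Npy1r (0.93 ± 0.12 and 0.71 ± 0.24) rose in excitatory neurons of both regions, and Npy1r in interneurons too (0.69 ± 0.23 and 1.39 ± 0.36). Tacr3, the receptor of neurokinin B, which no member encodes, was lower in GF than in CGF excitatory neurons, at -1.26 ± 0.28 and -2.28 ± 0.20.

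Of 31 other neuropeptide precursors, 9 had enough UMIs in Hip interneurons, of which 5 were higher and 1 lower in GF than in SPF mice (median 1.1), and 5 in PFC interneurons, of which 0 passed with edgeR. In excitatory neurons 4 were higher and 1 lower of 13 in Hip, and 1 higher and 4 lower of 13 in PFC, a smaller share than the 61.7% over all genes. Cartpt (1.12 ± 0.37 and 1.35 ± 0.39) and Nppc (1.24 ± 0.21 and 0.71 ± 0.24) were higher in GF than in CGF excitatory neurons of both regions.

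Over the 36 class sums (2 classes in 18 libraries), each precursor was set beside 11558 genes with a mean of at least 5 CPM, a limit that leaves out Pdyn, Crh and Adcyap1 as possible neighbours. The 3 genes whose log2 levels went most closely with a precursor included other members for Sst, Vip, Penk, Tac1 and Crh. Tac1 was among the 3 closest genes to Sst (Pearson r = 0.951) and to Vip (0.941), Npy among those to Crh (0.944) and Penk (0.869), and Vip among those to Crh (0.939). The closest gene was Pvalb for Npy (0.963), Tac2 for Vip (0.964), Phlda1 for Sst (0.963) and Rccd1 for Cort (0.949). Cck was closest to Hspa5 (0.938), Zfp637 (0.922) and Pdia6 (0.920), of which Hspa5 and Pdia6 encode chaperones of the endoplasmic reticulum. Like Cck, Npy, Pdyn, Cort and Adcyap1 had no other member among their 3 closest genes. These correlations are descriptions: the sums share libraries, depth and the split into classes and regions.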

How the data were processed

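Single-nucleus RNA of 18 libraries (Hip and PFC of 9 mice, 3 each of SPF, GF and CGF) was counted by the authors with Cell Ranger against mm10 and Ensembl 92, per the file headers with version 3.1.0. The deposited values are raw UMI counts per gene and barcode, with no normalization. Nuclei with at least 200 genes and at most 10% mitochondrial UMIs were kept (138000 of 139924). Nuclei that met both class rules (0.9% to 6.31% per library) were left out, and no doublet caller was run. Libraries held 20070604 to 71320063 UMIs, and intervals of low counts cover counting error only.

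Class sums were tested with edgeR 4.0.16 (quasi-likelihood, TMM factors, low counts filtered) in R 4.3.3, with Benjamini-Hochberg adjustment over all genes and calls at an adjusted p under 0.05. Standard errors were taken as log2 fold change over the root of F. Group fits used the 9 libraries of a region, fits of regions the 18 libraries of a class, and fits of classes the sums of both classes in a region. Shares, subsets and glial levels were tested with exact permutation tests (scipy 1.17.1). The tests were tested on simulated data with known changes. The glial reference joined oligodendrocytes (4 or more UMIs of a marker set that is not reported here) and astrocytes (2 or more of Aqp4 and Gja1), each with at most 1 UMI of either neuronal marker set.

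The 10 members, the gene lists and the tests were chosen with earlier results of these data known. All members are named. Of each list, genes are drawn from the up to 4 with the largest change among those called with the same sign in both regions. Genes most like a member are the 3 with the highest Pearson r. Same-mouse libraries come from the same animal. Their deviations from the group means correlated at 0.148 to 0.335 in excitatory neurons and -0.142 to 0.146 in interneurons. Alternatives were DESeq2 1.42.0, no filter on low counts, no filter on nuclei, stricter classes, thinned nuclei, a trend on gene length and GC content removed, a replicate block, only the 2 groups compared, and each mouse left out. Levels net of glia and the tests against glia were added after seeing the data.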

Additional observations from a re-analysis of the deposited data

Results flagged for a closer look

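The difference between GF and SPF mice was itself different between Hip and PFC, by the interaction test in edgeR, for 6 precursors in each class, where 15.9% of all genes in interneurons and 23.0% in excitatory neurons were called higher in Hip. Among genes as short as the precursors, 26.6% and 35.4% were. With nuclei thinned to 2000 UMIs, 3 precursors in interneurons and 2 in excitatory neurons were called. In interneurons the Hip difference exceeded the PFC difference by 3.73 for Npy, 2.61 for Crh, 2.42 for Cort, 2.23 for Sst, 1.79 for Vip and 1.5 for Tac1 on the log2 scale. In excitatory neurons it did so by 2.77 for Cort, 1.91 for Pdyn, 1.73 for Penk, 1.66 for Crh, 1.61 for Npy and 1.21 for Adcyap1.

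In glial nuclei, used above only as a reference, UMIs per nucleus of the following precursors were higher in every GF than in every SPF library. How many of all genes were so was not counted. In Hip, Cck averaged 160 UMIs per 100 glial nuclei in GF mice, Npy 7.10 and Vip 6.30. In PFC, Cck averaged 199, Sst 45.4, Npy 20.9, Vip 13.1, Tac1 5.14, Adcyap1 2.16 and Crh 1.06. Adcyap1 and Crh had 0 UMIs in the 331 glial nuclei of SPF mice in PFC, too few nuclei to read a difference from. Glial nuclei of PFC were also shallower in SPF mice, with medians of 1104 to 1253 UMIs in oligodendrocytes against 1998 to 2297 in GF mice, and in CPM the groups overlapped for Npy (68.3 to 100.4 in GF and 29.9 to 84.9 in SPF oligodendrocytes). PFC libraries of SPF mice held 87 to 133 glial nuclei each, against 581 to 786 in GF mice.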

How the results depend on the processing

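When single mice were left out, the number of precursors called between GF and SPF mice was 5 to 8 in Hip interneurons and 3 to 6 in Hip excitatory neurons. Between GF and CGF mice it was 5 to 9 in Hip excitatory neurons and 2 to 5 in PFC interneurons, and between CGF and SPF mice 0 to 1 in both classes of PFC. Between regions in GF excitatory neurons it was 3 to 6. With the trend on gene length and GC content removed, 4 precursors were called between GF and SPF mice and 72.8% instead of 52.4% of all calls between GF and CGF mice were higher in Hip interneurons, and 2 (GF and SPF) and 4 (GF and CGF) precursors were called in Hip excitatory neurons, where 71.2% instead of 54.0% and 71.1% instead of 53.6% of all calls were higher. It left 2 between GF and CGF mice in PFC interneurons. Stricter classes left 2 there, and 2 (GF and SPF) and 5 (GF and CGF) in Hip excitatory neurons. Without a filter on low counts, 2 precursors in interneurons and 1 in excitatory neurons of PFC were called between CGF and SPF mice, 6 between regions in GF interneurons, and the median log2 fold change of all genes stood at 0.22 instead of 0.0146 between GF and SPF interneurons of PFC. DESeq2 called 1 between CGF and SPF mice in PFC excitatory neurons. Nuclei thinned to 2000 UMIs gave 4 (GF and SPF) and 4 (GF and CGF) in Hip interneurons, 1 and 1 in Hip excitatory neurons, 1 between regions in GF interneurons, 3, 3 and 4 between regions in SPF, GF and CGF excitatory neurons, 3 and 2 for the interaction in interneurons and excitatory neurons, and 3 between classes in Hip. Thinning also leaves fewer UMIs: of the 125 calls of precursors in the main fits, 83 had a fit with thinned nuclei. The classes of these sums were set anew after thinning. The other causes were not tested.

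Reversed values were 0.0293 for Cort between GF and CGF interneurons of PFC (stricter classes), -0.20 for Sst between GF and CGF excitatory neurons of Hip (trend removed), 0.0835 for Sst, 0.0685 for Cck and 0.21 for Tac1 between regions in SPF excitatory neurons (thinned), 0.31 (trend removed) and 0.14 (thinned) for Sst between regions in CGF excitatory neurons, and -1.11 CPM for Vip in Hip excitatory neurons (net of glia).

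The replicate block, which pairs the libraries of a mouse, changed 3 calls over 10 comparisons. Penk between regions in GF excitatory neurons went to an adjusted p of 0.0507 (-0.62), Sst there to 0.0303 (-0.48) and Adcyap1 between classes in Hip to 0.0256 (-0.61), all with edgeR.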
